A study of Mus musculus with 26 samples.

Results

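Glucose leaves and enters the liver through a small set of controlled steps, and 9 of the genes behind those steps are described here in 26 mouse liver RNA-seq libraries. The genes are G6pc, Pck1 and Fbp1 (gluconeogenesis), Pklr and Pfkfb1 (glycolysis and its control), Gys2 (glycogen synthesis) and Ppp1r3b, Ppp1r3c and Ppp1r3g (glycogen-targeting subunits of protein phosphatase 1). They were chosen by name, as the rows of the count table whose Ensembl identifiers carry these symbols (G6pc is listed as G6pc1 in current annotation), and are 9 of 47643 genes in the table. Each symbol matched 1 row. These genes and the pathway lists below were chosen with earlier results of these data known. Their shares beside those of all genes are therefore a description only.

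In the fasted state the liver makes glucose from lactate, glycerol and amino acids: phosphoenolpyruvate carboxykinase (Pck1) and fructose-1,6-bisphosphatase (Fbp1) run steps that bypass irreversible reactions of glycolysis, and the catalytic subunit of glucose-6-phosphatase (G6pc) releases free glucose. In the fed state, liver-type pyruvate kinase (Pklr) closes glycolysis, and the bifunctional enzyme Pfkfb1 makes or removes fructose-2,6-bisphosphate, the metabolite that favours glycolysis over gluconeogenesis. Liver glycogen synthase (Gys2) is switched on by dephosphorylation, and the Ppp1r3 subunits bring the phosphatase to the glycogen particle. Many of these genes are known to follow feeding, insulin, glucagon and the time of day.

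The study profiled livers or hepatocytes after a drug, gene deletion, surgery or diet, in 5 separate experiments, each with its own control group. In the first, C57BL/6J wild type mice of 8 weeks, fed ad libitum, received corn oil (n = 2) or TCPOBOP, an agonist of the nuclear receptor CAR (n = 2). The titles place the TCPOBOP livers 36 h after injection, while another label of the same samples gives 6 h. In the second, C57BL/6J mice of 12 weeks, fed ad libitum, were wild type (n = 3) or Fxr-/- Shp-/- (n = 3), so they lacked FXR, the receptor for bile acids encoded by Nr1h4, and its target SHP, encoded by Nr0b2. In the third, C3H/HeN mice of 8 to 10 weeks, fed ad libitum and with no genotype in the labels, had a sham operation sampled at 0 h (n = 3) or a partial hepatectomy (PHx) sampled at 48 h (n = 3), so that surgery and time since surgery differed together. In the fourth, hepatocytes were isolated from C57BL/6J wild type mice of 16 weeks after a 10 h fast, on chow (n = 2) or on a 60% high fat diet (n = 2). In the fifth, C57BL/6J mice of 10 to 12 weeks with the genotype fl/fl Fxr fl/fl Shp, fasted for 8 to 10 h, ate chow (n = 3) or a cholic acid diet (n = 3). Both groups of that experiment carry the floxed alleles, and the labels name no Cre. All material was whole liver except in the fourth experiment. Sex and the time of day at sampling are not in the labels, nor is it said which animals the libraries came from, so the p-values measure the spread between these libraries.

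The members lie on 8 chromosomes, and 7 of 9 had a promoter window in the RefSeq table of GRCm38.p6 (250 bases before each annotated start), while Gys2 and Ppp1r3b had none. Coordinates of the genes are those of GENCODE M21 on GRCm38. Pck1 spans chr2:173153048-173159273 on the plus strand, Pklr chr3:89136142-89146784 on the plus strand and Ppp1r3c chr19:36731731-36736653 on the minus strand. G6pc spans chr11:101367561-101377903 (plus), Fbp1 chr13:62864753-62888282 (minus), Pfkfb1 chrX:150588229-150643878 (plus), Gys2 chr6:142422613-142473109 (minus), Ppp1r3b chr8:35375739-35388139 (plus) and Ppp1r3g chr13:35958839-35970388 (plus). These 3 stretches before a start are shown because they belong to a gluconeogenic, a glycolytic and a glycogen gene with called changes of over 1 log2 unit in the knockout livers, and because each holds a short motif that was searched for. They are written 5′ to 3′ on the gene's strand, and each ends where the GENCODE exon next to the RefSeq start begins. The stretches of Pck1 and Ppp1r3c lie upstream of the gene, and that of Pklr lies inside it, in an intron downstream of its first start. Capitals mark CGTCA, which makes up one end of the cAMP response element, in Pck1 (90 to 86 bases before the RefSeq start), CACGGG and its other-strand form CCCGTG in Pklr (at 170 to 165 and 159 to 154) and the E box CACGTG in Ppp1r3c (at 104 to 99).

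Pck1, chr2:173152823-173153047, plus strand: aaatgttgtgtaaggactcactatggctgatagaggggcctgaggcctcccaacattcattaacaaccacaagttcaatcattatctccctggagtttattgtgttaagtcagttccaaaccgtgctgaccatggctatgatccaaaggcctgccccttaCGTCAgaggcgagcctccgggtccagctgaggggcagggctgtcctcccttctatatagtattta
Pklr, chr3:89136373-89136571, plus strand, before the downstream of its 2 RefSeq starts: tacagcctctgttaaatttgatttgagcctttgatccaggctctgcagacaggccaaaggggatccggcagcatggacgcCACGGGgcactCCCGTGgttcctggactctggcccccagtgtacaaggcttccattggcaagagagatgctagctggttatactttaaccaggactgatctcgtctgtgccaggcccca
Ppp1r3c, chr19:36736654-36736854, minus strand: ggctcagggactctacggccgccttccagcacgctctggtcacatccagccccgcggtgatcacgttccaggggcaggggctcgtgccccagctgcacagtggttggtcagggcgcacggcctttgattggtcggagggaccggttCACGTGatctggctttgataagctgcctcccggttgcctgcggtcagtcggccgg

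Counting both strands, the letters CGTCA stood in 17.8% of 32851 RefSeq promoter windows of the same length, CACGTG in 6.02% and CACGGG in 8.46%, so none of the 3 is rare. CACGGG was searched for after the sequences had been seen. The full palindrome TGACGTCA was in 1.55% of windows and the FOXO and FOXA core TGTTTAC in 3.17%, and neither was found in a member's window. CGTCA was also found in the window of Ppp1r3g, on the other strand (40 to 36 bases before its start). TATAAA, present in 12.4% of windows, was found within 31 bases of the start of G6pc (29 to 24) and Pklr (31 to 26), and farther from one start of Pfkfb1 (193 to 188). A match is a description of the letters only.

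The libraries held 13949059 to 70367874 reads assigned to genes, most in the hepatocytes (58583685 to 70367874). Values below are CPM, a gene's reads relative to the library's total, scaled for composition by edgeR's TMM factors, and 3 counts, used as the floor of detection for counting error only, came to between 0.045 and 0.222 CPM. Nr0b2, deleted in the knockout, was at 0.563 to 1.59 CPM in Fxr-/- Shp-/- livers and 13.3 to 26.8 CPM in wild type; Nr1h4 was lower but still counted (52.9 to 61.5 against 114 to 153 CPM). Cyp2b10, the standard target of CAR, was at 3420 and 2976 CPM with TCPOBOP, but the library labelled corn oil 1 had 3672 CPM, against 10.0 CPM for corn oil 2. The library labelled corn oil 1 goes against its label, and no direction is drawn from the TCPOBOP comparison. Albumin (Alb) stood between 29981 and 102817 CPM in all 26 libraries. The clock genes Arntl and Dbp set corn oil 1, PHx 3 and floxed chow 3 apart from the others of their groups, and by a smaller margin cholic acid 2. In bulk RNA, fewer hepatocytes and less RNA per hepatocyte cannot be told apart.

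Counting the members that passed edgeR's quasi-likelihood test at an adjusted p under 0.05, the change was broadest after partial hepatectomy and in the double knockout. After PHx, 6 of 9 members fell (G6pc, Pck1, Fbp1, Pklr, Gys2, Ppp1r3g) and none rose, where 14.3% of all 13753 genes tested fell and 16.4% rose (30.7% together). The median log2 change of the 9 genes was -1.29, against 0.01 over all genes tested. In Fxr-/- Shp-/- livers 5 of 9 fell (G6pc, Pck1, Gys2, Ppp1r3b, Ppp1r3c) and 2 rose (Pklr, Ppp1r3g), where 19.4% of 13473 genes fell and 21% rose (40.4% in either direction). The median there was -0.62 against -0.01. In hepatocytes of high fat fed mice 2 of 9 fell (Pck1, Pfkfb1) and Pklr rose, with 11.1% of 13892 genes lower and 12.9% higher, so the members' share, 3 of 9 in either direction against 24% of all genes, was near the background. The median of the 9 was 0.17 against 0.01. With cholic acid 2 of 9 fell (Gys2, Pfkfb1) and none rose, where 2.5% of 12577 genes fell and 2.27% rose (4.77% together), with a median of -0.97 against 0.01. With TCPOBOP none of the 8 members tested passed. By edgeR 0% of 12785 genes did, although 751 genes had an unadjusted p under 0.05 and DESeq2 called 91 genes. Ppp1r3g was too low to be tested there. Many genes had groups that did not overlap. This held for 8 of 9 members after PHx against 47.1% of all genes tested, and in the knockout for 7 of 9 against 53.7%. With high fat it was 7 of 9 against 67.7%, near the background. With cholic acid it was 4 of 9 against 31.1%, and with TCPOBOP 4 of 8 against 34.8%.

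**Figure D1:**
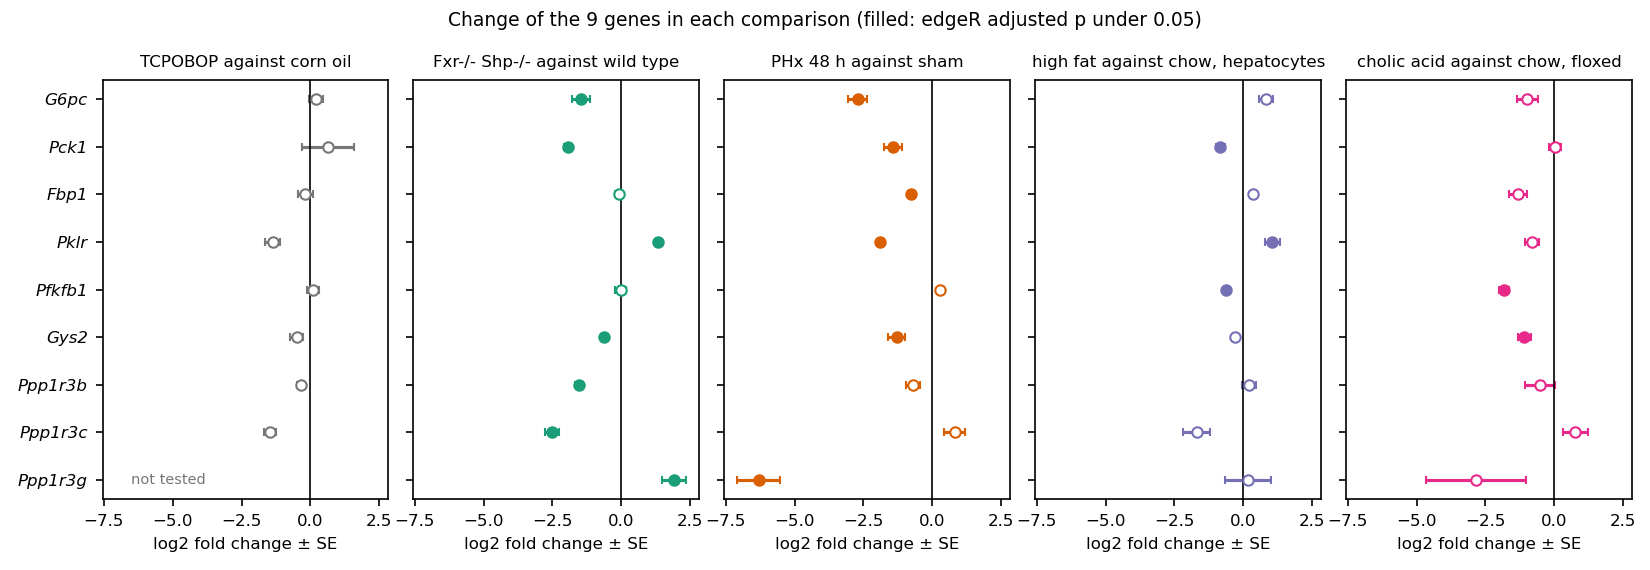
Log2 fold change (x axis, with its standard error as a bar) of each of the 9 genes (y axis) in the 5 comparisons, 1 panel each; filled points passed edgeR's test at an adjusted p under 0.05. The hepatectomy panel has 6 filled points, all left of 0, the knockout panel 5 to the left and 2 to the right, and Ppp1r3g spans the widest range.

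With TCPOBOP no gene passed the test, so no member could pass in all 5 comparisons. None passed in all of the others. Pck1 and Gys2 fell in 3 of 5 comparisons each, G6pc and Pfkfb1 in 2 and Fbp1 in 1, and none of these 5 rose in any. The point estimate of Gys2 was under 0 in every comparison other than that with TCPOBOP, from which no direction is drawn. Pklr rose in 2 and fell in 1.

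Among the gluconeogenic enzymes, G6pc and Pck1 were lower in the knockout and after hepatectomy. G6pc was at 474, 324 and 415 CPM in wild type and at 80.3, 128 and 223 CPM in Fxr-/- Shp-/- livers. The groups did not overlap, and the spread was wider in the knockout. The log2 fold change was -1.47 (SE 0.32, adjusted p = 0.00701). After sham operation G6pc was at 205, 524 and 543 CPM, and 48 h after PHx at 72.8, 56.8 and 65.1 CPM. All 3 PHx livers lay under the lowest sham liver, with a log2 fold change of -2.71 (SE 0.34, adjusted p = 0.000902). Among the members only Ppp1r3g had a larger fall in that comparison.

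In isolated hepatocytes G6pc was at 429.8 and 709 CPM on chow and at 1147 and 921 CPM on the high fat diet, the highest of the 10 groups. These groups did not overlap, which held for 67.7% of all genes tested there. The difference of 0.83 (SE 0.24) had an adjusted p of 0.0543. It stood at 414, 356 and 624 CPM in floxed mice on chow and at 331, 111 and 270.4 CPM on cholic acid, which gave -0.97 (SE 0.39, adjusted p = 0.186). Every cholic acid library was under every chow library, and without cholic acid 2, the lowest, the difference was -0.62. With corn oil G6pc was at 147 and 98.1 CPM and with TCPOBOP at 131 and 154 CPM, overlapping ranges with a difference of 0.21 (SE 0.24). In the order of group means from high fat hepatocytes (1034 ± 159.8 CPM, SD, n = 2) down to PHx (64.9 ± 8.01, n = 3), 7 of 9 neighbouring groups overlapped, and only the highest and the lowest group stood clear of their neighbour.

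Pck1, which turns oxaloacetate into phosphoenolpyruvate and is the classical cAMP-induced gene of fasting, was at 5190, 4611 and 6467 CPM in wild type and at 1311, 1276 and 1583 CPM in Fxr-/- Shp-/- livers. The lowest wild type library was far above the highest knockout library, with a log2 fold change of -1.94 (SE 0.16, adjusted p = 4.08e-05). Sham livers had 2484, 3035 and 3324 CPM and PHx livers 1334, 1445 and 518 CPM. The groups did not overlap, and PHx 3, which stands apart in its clock genes, was the lowest. The change was -1.42 (SE 0.34, adjusted p = 0.0155). Without PHx 3 it was -1.09 and still called, while the call was lost without sham 2 (adjusted p = 0.0517) and without sham 3 (adjusted p = 0.0606).

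High fat feeding went with lower Pck1 in hepatocytes: 6791 and 6390 CPM on chow against 3184 and 4356 CPM on the high fat diet. The change was -0.83 (SE 0.16, adjusted p = 0.0208), in the opposite direction to the point estimate of G6pc in the same libraries. With cholic acid no difference was detected. Chow livers had 3201, 4241 and 4405 CPM and cholic acid livers 4610, 4066 and 3483 CPM, a difference of 0.04 (SE 0.21, adjusted p = 0.936). The corn oil libraries had 164 and 1415 CPM of Pck1, against 1093 and 1404 CPM with TCPOBOP. So the estimate of 0.65 (SE 0.95) became 2.92 without corn oil 2 (adjusted p = 0.000677, a call) and -0.18 without corn oil 1. In these fits the single control library is assumed to vary like the TCPOBOP group. Group means ran from 6590 ± 284 CPM in chow hepatocytes to 789.5 ± 885 CPM with corn oil (SD, n = 2 each), and 7 of 9 neighbours overlapped.

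Fbp1, which removes a phosphate from fructose-1,6-bisphosphate, was the least variable of the gluconeogenic trio. In the knockout experiment it was at 1001, 695 and 931 CPM in wild type and 799, 869 and 784 CPM in knockout livers, overlapping ranges with a change of -0.08 (SE 0.14, adjusted p = 0.685). After PHx it fell from 1227, 1239 and 1228 CPM to 795, 748 and 632 CPM. The sham libraries had an SD of only 6.48 CPM, and the change of -0.76 (SE 0.10) passed with an adjusted p of 0.00106. Fbp1 thus fell after PHx and showed no detectable difference in the knockout, and the test of the difference between the effects is given below.

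In hepatocytes Fbp1 stood at 1066 and 1177 CPM on chow and 1570 and 1370 CPM on high fat, a difference of 0.36 (SE 0.11, adjusted p = 0.0570). Cholic acid livers had 441, 484 and 344 CPM, each under the chow livers with 812, 669.8 and 1669 CPM. The difference of -1.31 (SE 0.34) had an adjusted p of 0.0679. Floxed chow 3, the library that stands apart, gave the high value. Without it the difference was -0.81 and passed (adjusted p = 0.0339). Corn oil (472 and 759 CPM) and TCPOBOP (519 and 575 CPM) overlapped. Of the neighbouring group means, 6 of 9 overlapped, from 1470 ± 141 CPM in high fat hepatocytes to 423 ± 71.5 CPM with cholic acid.

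**Figure D2:**
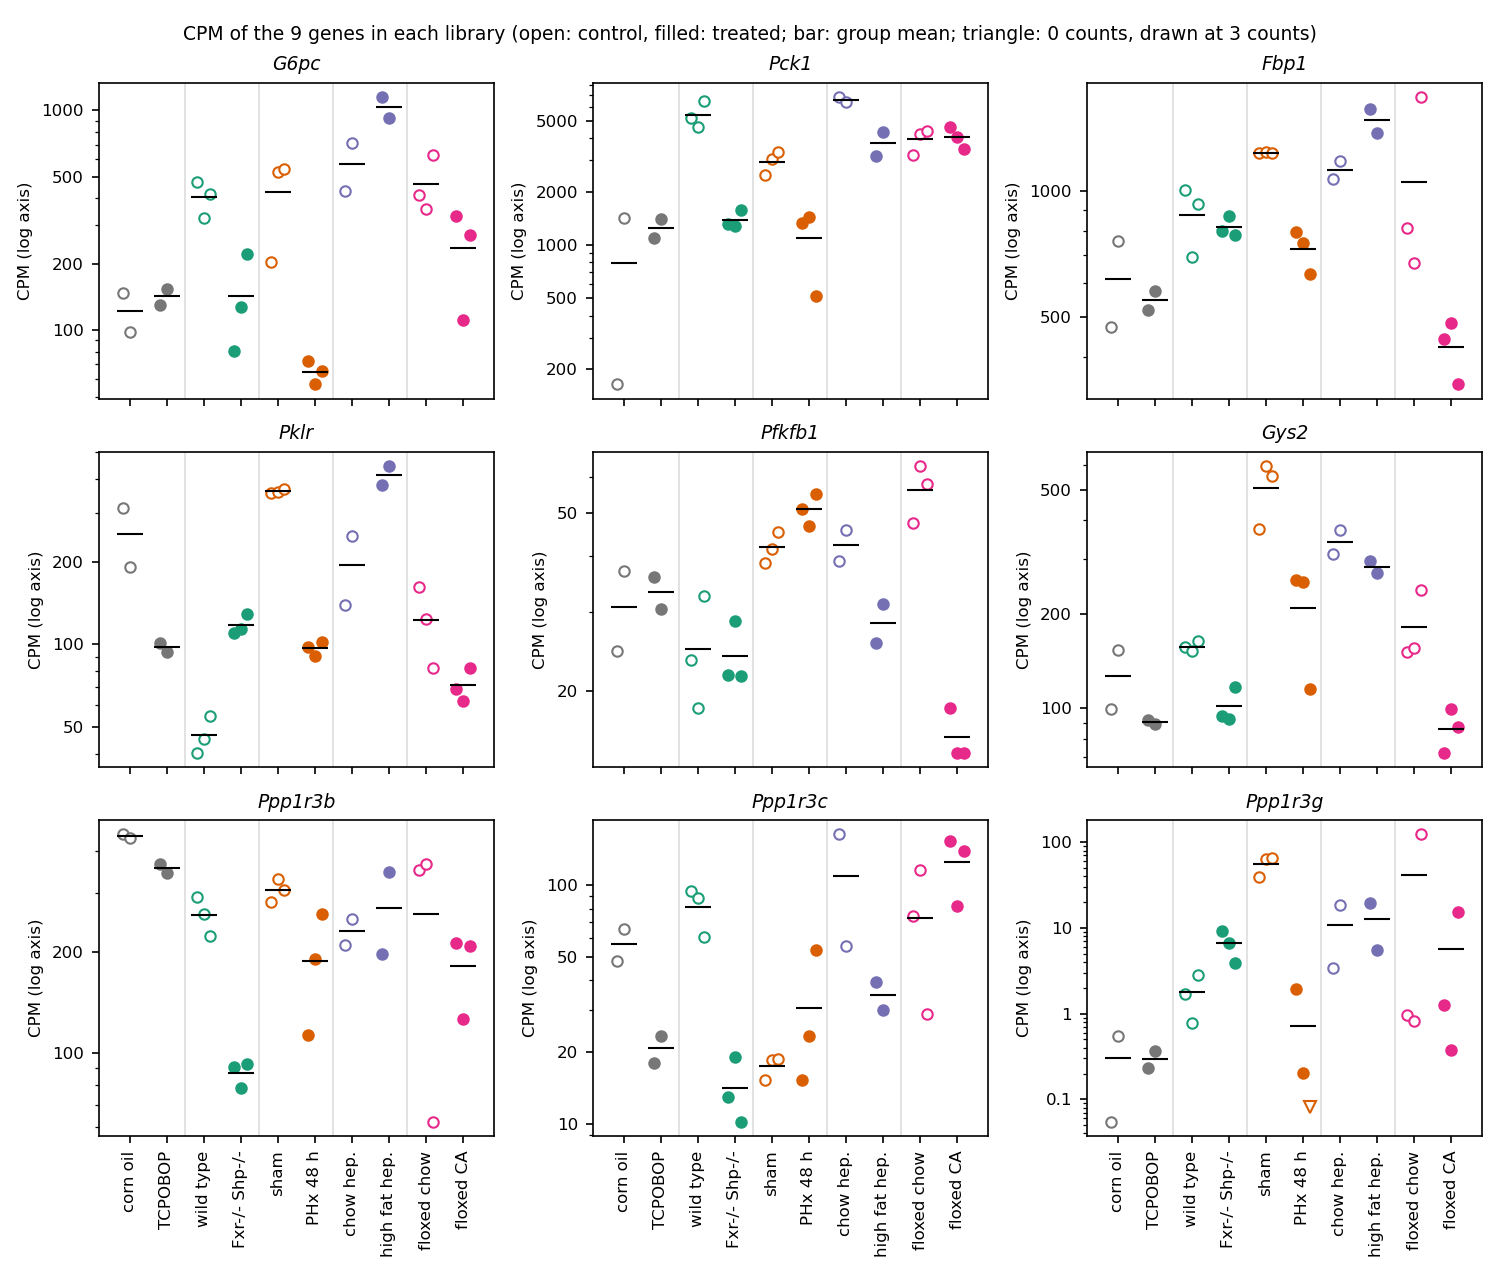
CPM of each of the 9 genes (log y axis, 1 panel per gene) in each of the 26 libraries, by group on the x axis; open points are controls, filled points treated or knockout, bars group means, and the triangle is a library with 0 counts drawn at 3 counts. Pck1 in the knockout, Pklr after hepatectomy and Ppp1r3b in the knockout show full separation, while floxed chow 3 sits far from its group for Ppp1r3b and Ppp1r3g.

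Pklr, the last enzyme of glycolysis and a known target of the glucose-sensing factor ChREBP, took opposite directions in the knockout and after hepatectomy. It was at 40.2, 45.4 and 55.0 CPM in wild type and at 110.0, 113 and 129 CPM in Fxr-/- Shp-/- livers. The ranges were well apart, with a log2 fold change of 1.35 (SE 0.12, adjusted p = 8.36e-05). After PHx it was at 97.5, 90.6 and 102 CPM against 354, 359 and 368 CPM after sham operation. Replicates lay close together, and the change of -1.90 (SE 0.08) had the smallest adjusted p of any member in any comparison with a control, 6.46e-06. The wild type mean of 46.9 ± 7.5 CPM was the lowest of all 10 groups, and the sham mean of 360.1 ± 7.04 CPM the next to highest (SD, n = 3 each).

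Pklr rose with the high fat diet, from 139 and 248 CPM to 379 and 445 CPM in hepatocytes. The change was 1.06 (SE 0.26, adjusted p = 0.0360), and the call was lost without high fat 1 (adjusted p = 0.0631) and without high fat 2 (adjusted p = 0.0898). With cholic acid it was at 68.6, 62.0 and 82.1 CPM against 162, 123 and 81.8 CPM on chow. The lowest chow library, floxed chow 3, overlapped the cholic acid libraries. The difference was -0.79 (SE 0.25, adjusted p = 0.115), and -1.01 with a call without floxed chow 3 (adjusted p = 0.0142). Corn oil libraries had 312 and 190.4 CPM and TCPOBOP libraries 101 and 94.1 CPM, a difference of -1.37 (SE 0.27, adjusted p = 0.679). It was -0.97 without corn oil 1 and -1.68 without corn oil 2, in fits that leave 1 control library and cannot measure its spread. Only 4 of 9 neighbouring groups overlapped for Pklr, the fewest of any member.

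Pklr shares 711 bases of exon with Hcn3 on the other strand, and Pfkfb1 shares 123 with Apex2. The kit keeps strand, but whether counting used it is not given in the sources used here. Hcn3 stood between 0 and 0.606 CPM in the 26 libraries, far under Pklr. Apex2 stood between 5.28 and 14.2 CPM, closer to Pfkfb1, whose values are therefore less certain where reads fall in the shared exon.

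Pfkfb1, whose product sets the level of fructose-2,6-bisphosphate, had its largest change with cholic acid. Chow livers were at 47.5, 63.7 and 57.9 CPM and cholic acid livers at 18.3, 14.6 and 14.5 CPM. The lowest chow library was far above the highest cholic acid library, and floxed chow 3 lay between the others. The log2 fold change was -1.83 (SE 0.18, adjusted p = 0.00256), and it passed in all 6 fits that left out 1 library, at -1.95 to -1.73. Apex2 differed in the same direction, with 10.7, 13.6 and 9.5 CPM on chow and 7.98, 5.28 and 7.29 CPM on cholic acid, and its part in the Pfkfb1 result was not tested.

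In hepatocytes Pfkfb1 fell from 39.1 and 45.8 CPM on chow to 25.6 and 31.3 CPM on high fat, a change of -0.61 (SE 0.13, adjusted p = 0.0257). The call was lost without chow 2 (adjusted p = 0.0530) and without high fat 1 (adjusted p = 0.0913). Wild type livers had 23.5, 18.3 and 32.6 CPM and knockout livers 21.7, 28.7 and 21.6 CPM, which overlap with a difference of -0.02 (SE 0.20, adjusted p = 0.936). Sham livers had 38.7, 41.6 and 45.4 CPM, just under the PHx livers at 50.9, 46.8 and 55.0 CPM, and the difference of 0.28 (SE 0.10) had an adjusted p of 0.0652. Pfkfb1 was the only member with a higher mean after PHx besides Ppp1r3c. Corn oil (24.6 and 37.1 CPM) and TCPOBOP (36.0 and 30.5 CPM) overlapped. Among neighbouring group means, 6 of 9 overlapped.

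Gys2, the liver isoform of glycogen synthase, had a lower mean than its control group in all 4 experiments other than that with TCPOBOP, with a called fall in 3. Wild type livers had 157, 153 and 164 CPM and Fxr-/- Shp-/- livers 94.5, 92.5 and 117 CPM, a change of -0.62 (SE 0.11, adjusted p = 0.00240). Sham livers had 375, 598 and 554 CPM and PHx livers 258, 254 and 116 CPM. The groups did not overlap, and PHx 3 was again the lowest. The change was -1.29 (SE 0.31, adjusted p = 0.0154), and the call was lost without sham 2 (adjusted p = 0.0599) and without sham 3 (adjusted p = 0.0597). Without PHx 3 it was -0.995 and called. Chow livers of floxed mice had 151, 156 and 239 CPM, above the cholic acid livers with 72.0, 99.3 and 86.9 CPM. That change of -1.08 (SE 0.23) passed with an adjusted p of 0.0347, but the call was lost in 5 of the 6 fits that left out 1 library, and was kept without floxed chow 3.

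In hepatocytes Gys2 was at 311 and 372 CPM on chow and 298 and 271 CPM on high fat, a difference of -0.29 (SE 0.11, adjusted p = 0.109). With corn oil it was at 99.4 and 154 CPM and with TCPOBOP at 91.7 and 89.2 CPM, a difference of -0.50 (SE 0.24, adjusted p = 0.882). Without corn oil 1 this was -0.77, in a fit that leaves 1 control library and cannot measure its spread. The sham mean of 509 ± 118 CPM was the highest and the cholic acid mean of 86.1 ± 13.7 CPM the lowest, with 5 of 9 neighbours overlapping.

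The glycogen-targeting subunits did not move as a block. Ppp1r3b, the subunit known to be most abundant in rodent liver, and Ppp1r3c both fell in the knockout, where Ppp1r3g rose. Ppp1r3b was at 293, 259.7 and 223 CPM in wild type and 90.6, 78.4 and 92.9 CPM in Fxr-/- Shp-/- livers. The groups were clearly apart, with a log2 fold change of -1.55 (SE 0.13, adjusted p = 4.2e-05). Ppp1r3c was at 95.1, 88.2 and 61.1 CPM in wild type and at 13.03, 19.1 and 10.3 CPM in the knockout. Its fall of -2.51 (SE 0.24, adjusted p = 0.000107) was the largest of any member in that comparison. Ppp1r3g went from 1.70, 0.782 and 2.82 CPM to 9.31, 6.75 and 3.88 CPM, a rise of 1.93 (SE 0.43, adjusted p = 0.00798). It rested on 13 to 48 reads in wild type and 95 to 215 reads in the knockout.

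After hepatectomy Ppp1r3g had the largest change of any member. Sham livers had 39.6, 62.9 and 65.2 CPM, from 1229 to 2153 reads each. PHx 1 had 1.94 CPM, PHx 2 had 0.203 CPM and PHx 3 had 0 reads, where 3 counts, the limit that a count of 0 allows, would be 0.0811 CPM. The groups were far apart. The fitted log2 fold change was -6.30 (SE 0.78, adjusted p = 0.000806), and -5.70 to -9.10 with 1 library left out, the strongest value coming without PHx 1. The group means were 55.9 ± 14.2 and 0.713 ± 1.06 CPM (SD, n = 3 each).

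The other subunits did not pass after hepatectomy. Ppp1r3b had 282, 330.0 and 306 CPM after sham operation and 113, 190.3 and 259.9 CPM after PHx, with -0.70 (SE 0.26, adjusted p = 0.0704). PHx 3 was the nearest to the sham livers, and without it the difference was -1.01 and called (adjusted p = 0.00694). Ppp1r3c had 15.4, 18.5 and 18.7 CPM after sham operation and 15.3, 23.4 and 53.5 CPM after PHx, with 0.81 (SE 0.40, adjusted p = 0.160). PHx 3 supplied the high value: without it the difference was 0.14, and without PHx 1 it was 1.136 and called (adjusted p = 0.0300).

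In hepatocytes Ppp1r3c was at 163 and 55.6 CPM on chow and at 39.3 and 30.0 CPM on high fat, a difference of -1.69 (SE 0.48, adjusted p = 0.0529). The chow libraries differed more from each other than chow 2 did from the high fat libraries. The difference was -0.71 without chow 1 and -2.28 without chow 2. Each of these fits leaves 1 chow library, so the spread on chow cannot be measured in them. Ppp1r3b overlapped, at 209.8 and 252 CPM on chow and 197 and 346 CPM on high fat, as did Ppp1r3g, at 3.41 and 18.5 CPM and 19.7 and 5.47 CPM. For Ppp1r3g each pair held 1 low and 1 high library, and its estimate of 0.17 (SE 0.84) was -0.58 without chow 1 and -1.02 without high fat 1. Corn oil and TCPOBOP differed by -1.46 for Ppp1r3c (48.4 and 65.6 against 18.1 and 23.4 CPM, SE 0.23, adjusted p = 0.679). This difference was -1.66 without corn oil 1 and -1.23 without corn oil 2, in fits that leave 1 control library and cannot measure its spread. Ppp1r3b was at 449 and 437 CPM with corn oil and 366 and 345 CPM with TCPOBOP, not called in any of these fits. Ppp1r3g had 1 to 10 reads in these 4 libraries and was not tested.

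With cholic acid the subunits' differences changed with floxed chow 3. In chow libraries 1, 2 and 3, Ppp1r3b was at 352, 367 and 62.4 CPM, Ppp1r3c at 74.6, 116 and 29.0 CPM and Ppp1r3g at 0.963, 0.814 and 123 CPM. In the third library Ppp1r3b and Ppp1r3c were thus at their lowest of the group while Ppp1r3g was at its highest of all 26 libraries. In cholic acid livers Ppp1r3b was at 213, 126 and 208 CPM, Ppp1r3c at 154, 81.8 and 139 CPM and Ppp1r3g at 1.26, 0.377 and 15.5 CPM. None of the 3 passed with all libraries: -0.51 (SE 0.56) for Ppp1r3b, 0.77 (SE 0.45) for Ppp1r3c and -2.84 (SE 1.81) for Ppp1r3g. Without floxed chow 3, Ppp1r3b was -0.98 and called (adjusted p = 0.0367), and Ppp1r3g turned to 2.69 (adjusted p = 0.252).

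The clock genes Arntl and Dbp stood apart in the same libraries. Arntl was at 16.4, 14.2 and 1.96 CPM and Dbp at 4.37, 10.6 and 102 CPM in floxed chow 1, 2 and 3. In the cholic acid libraries Arntl was at 28.7, 10.7 and 26.2 CPM and Dbp at 2.47, 20.1 and 1.096 CPM. In PHx 1, 2 and 3 Arntl was at 0.911, 0.898 and 19.3 CPM and Dbp at 85.9, 69.5 and 4.54 CPM, and sham livers had 0.584 to 1.32 and 104 to 133 CPM. In the library labelled corn oil 1 Arntl was at 29.9 and Dbp at 0.276 CPM, against 5.56 and 68.7 CPM in corn oil 2. Floxed chow 3 combined high Dbp with high Ppp1r3g and low Ppp1r3c, and PHx 3 combined low Dbp with no Ppp1r3g reads and high Ppp1r3c, each relative to its own group. Cholic acid 2 went the other way for Ppp1r3g only, with the highest Dbp and the lowest Ppp1r3g of its group. Its Ppp1r3c was the lowest of its group, the same direction as in floxed chow 3. It was also the lowest there for G6pc and Ppp1r3b. The TCPOBOP libraries, with Dbp at 55.4 and 98.2 CPM, had Ppp1r3g at only 0.232 and 0.364 CPM. In the knockout comparison Arntl rose (0.79, adjusted p = 0.00542, 24.3 to 29.1 against 11.6 to 17.7 CPM), with Dbp at 5.498 to 22.8 against 13.6 to 18.9 CPM. The part of the clock genes' state in the members' results was not tested.

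**Figure D3:**
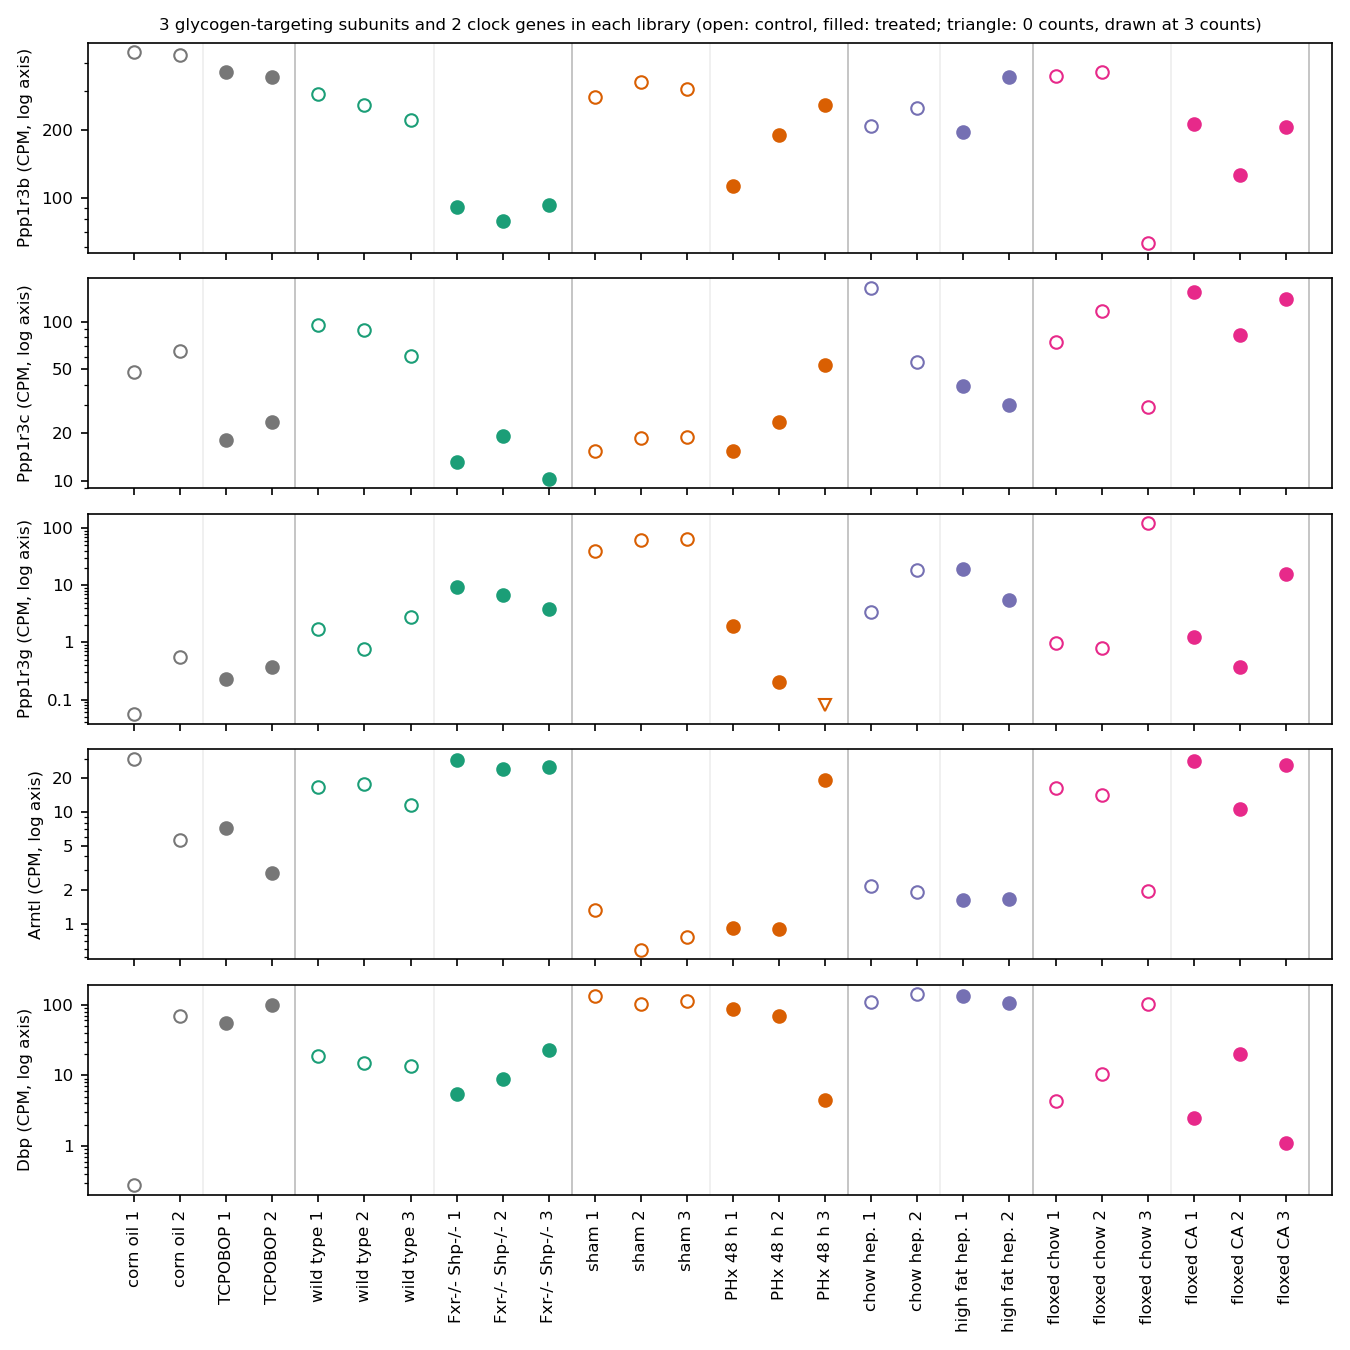
CPM (log y axes) of Ppp1r3b, Ppp1r3c, Ppp1r3g, Arntl and Dbp, 1 row each, in all 26 libraries along the x axis; open points are controls, filled points treated or knockout, and the triangle is a library with 0 counts drawn at 3 counts. Floxed chow 3 sits apart from floxed chow 1 and 2 in every row, PHx 3 sits apart in the rows of Arntl and Dbp, and the sham livers combine high Dbp with Ppp1r3g at 39.6 to 65.2 CPM.

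The markers of other liver cell types changed most often in the knockout and high fat experiments. In Fxr-/- Shp-/- livers 4 of 5 cholangiocyte markers rose (summed level 54.4 to 128 against 26.5 to 36.2 CPM), as did 5 of 6 stellate cell markers (359 to 406 against 152 to 252 CPM), and 2 of 7 hepatocyte markers fell. Over all genes tested 21% rose and 19.4% fell. Of leukocyte markers 2 of 4 tested rose, and of endothelial markers 2 of 6. Of 6 Kupffer cell markers 1 rose and 1 fell, and of 5 erythroid markers 1 fell. None of the cholangiocyte, stellate or hepatocyte markers was at 0 over these libraries, and of 5 muscle and fat markers Ckm was. In high fat hepatocytes 6 of 6 endothelial markers rose (summed 124 CPM in both libraries against 48.7 and 48.9 CPM), as did 5 of 6 stellate and 4 of 6 Kupffer cell markers, and 1 of 7 hepatocyte markers fell. The 2 leukocyte markers tested rose as well, where 12.9% of all genes rose and 11.1% fell. After PHx 4 of 7 hepatocyte markers fell and 1 rose, while 2 of 6 stellate, 1 of 5 cholangiocyte and 1 of 6 Kupffer cell markers rose and 1 of 6 endothelial markers fell. There 16.4% of all genes rose and 14.3% fell, near the shares of the cholangiocyte, Kupffer cell and endothelial markers. With cholic acid 1 of 6 Kupffer cell markers rose, with higher means for 6 of 6, and 1 of 5 erythroid and 1 of 7 hepatocyte markers fell. In that comparison 2.27% of all genes rose and 2.5% fell. The share of reads not aligned uniquely was 43.2 to 44.1% in wild type against 25.5 to 26.9% in knockout libraries. The part of these differences in the members' results was not tested. Pklr rose and Pck1 fell in both the knockout and the high fat comparison, in which stellate cell and endothelial markers also rose. The Pklr call with high fat was lost when either high fat library was left out. A link between these changes was not tested.

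The effects of the knockout and of hepatectomy were compared by an interaction contrast over the 12 libraries. Both experiments used ad libitum fed whole liver, but strain and age differed. In that contrast 31.5% of 14755 genes differed (15.4% higher and 16% lower in the knockout), and 4 of 9 members did. The effect was higher in the knockout by 3.26 log2 units for Pklr (SE 0.16, adjusted p = 3.08e-08), by 8.24 for Ppp1r3g (SE 0.96, adjusted p = 4.31e-05) and by 0.70 for Fbp1 (SE 0.18, adjusted p = 0.00971). It was lower by 3.31 for Ppp1r3c, that is -3.31 (SE 0.53, adjusted p = 0.000452). All 4 kept their call in each of the 12 fits that left out 1 library. G6pc (1.25, adjusted p = 0.0781), Gys2 (0.68, adjusted p = 0.158), Pck1 (-0.50, adjusted p = 0.373), Pfkfb1 (-0.29, adjusted p = 0.391) and Ppp1r3b (-0.83, adjusted p = 0.0607) did not pass. G6pc passed without knockout 1 (adjusted p = 0.0279) and without sham 1 (adjusted p = 0.0129), Ppp1r3b without PHx 1 (adjusted p = 0.00169) and Pck1 without PHx 3 (adjusted p = 0.0110).

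The effects of cholic acid and of high fat feeding were compared in the same way over 10 libraries. Both experiments used fasted C57BL/6J mice, but whole liver was set against hepatocytes, and genotype, age and stated length of fast differed. In that contrast 6.43% of 13339 genes differed, 2.68% with the higher and 3.75% with the lower effect for cholic acid, and 2 of 9 members did, both lower with cholic acid. The difference was -1.25 for Pfkfb1 (SE 0.25, adjusted p = 0.0212) and -1.87 for Pklr (SE 0.43, adjusted p = 0.0346). Neither is firm: with 1 library left out, the call was lost in 6 of 10 fits for Pfkfb1 and in 8 of 10 for Pklr, at adjusted p of up to 0.123 and 0.152. With the replicate numbers as a block neither passed (adjusted p = 0.058 each). Each of the 4 hepatocyte libraries was enough to lose either call. For Ppp1r3g the difference, which did not pass, was 2.54 without floxed chow 3.

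Levels can be compared between genes only per length, and were divided by the length of each gene's merged exons (CPM per kb, group mean and SD). In wild type livers the order was Pck1 (1581 ± 277), Fbp1 (514 ± 94.2), G6pc (167 ± 31.3), Gys2 (59.4 ± 2.15), Ppp1r3b (41.6 ± 5.62), Ppp1r3c (29.9 ± 6.61), Pklr (14.5 ± 2.32), Pfkfb1 (6.17 ± 1.80) and Ppp1r3g (0.657 ± 0.379, n = 3 each). In sham livers Pck1 (859.6 ± 125) and Fbp1 (723 ± 3.81) again led, but Gys2 (192 ± 44.5), Pklr (111 ± 2.18) and Ppp1r3g (20.8 ± 5.26) stood higher, and Ppp1r3c (6.43 ± 0.687) was the lowest member (n = 3 each). Ppp1r3g was thus below Ppp1r3c in one set of controls and above it in another. These controls differ in strain, age and experiment, which cannot be told apart.

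Each member's level over the 10 groups also varied by different amounts. The ratio of the highest to the lowest group mean was 3.47 for Fbp1, 3.56 for Pfkfb1, 5.08 for Ppp1r3b, 5.91 for Gys2, 8.35 for Pck1, 8.78 for Pklr, 8.82 for Ppp1r3c, 15.9 for G6pc and 187.5 for Ppp1r3g (sham against TCPOBOP). Corn oil means, the lowest for Pck1 and the highest for Ppp1r3b, include the library labelled corn oil 1, which goes against its label. For Pck1 that library had 164 CPM, against 1415 CPM in corn oil 2. For Ppp1r3c, 8 of 9 neighbouring groups overlapped, and for Ppp1r3g 9 of 9 did, since floxed chow and hepatocyte libraries spanned wide ranges. For Ppp1r3b, 6 of 9 overlapped, with corn oil, at 443 ± 8.41 CPM (SD, n = 2), on top and Fxr-/- Shp-/- livers, at 87.3 ± 7.83 CPM (n = 3), at the bottom, clear of their neighbours.

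Beyond the members, 83 further genes of these pathways were counted in 4 lists: gluconeogenesis and fructose-2,6-bisphosphate enzymes (13 genes), glycolysis (20), glycogen (25) and regulators and hormone-responsive genes of these pathways (25, called regulators below). In Fxr-/- Shp-/- livers 20 of 79 tested rose and 24 fell, where 21% of all genes rose and 19.4% fell, so the share that rose was near the background. Glycolysis genes rose more often than they fell (9 and 3 of 20, median 0.20, against -0.01 over all genes tested), and regulators fell more often (2 rose and 12 fell of 25, median -0.39). Hexokinase Hk2, low in normal hepatocytes, rose from 0.514 ± 0.0908 to 6.26 ± 1.22 CPM (log2 change 3.62, adjusted p = 2.21e-05). The muscle-type pyruvate kinase Pkm rose too (1.31), as did the brain-type glycogen phosphorylase Pygb (2.99) and the glycogen primer Gyg (1.87), while the liver phosphorylase Pygl fell (-0.51). Hk2, Pkm and Pygb are also made by cells other than hepatocytes, some of whose markers rose in these livers as given above. The part of such cells in these rises was not tested. The targeting subunit Ppp1r3e fell (-3.22, from 4.08 ± 0.34 to 0.422 ± 0.255 CPM), as did Pfkfb3 (-1.77). Among the regulators, the glucocorticoid-induced factor Klf15 (-1.87, from 259 ± 35.04 to 69.6 ± 27.2 CPM) and Cebpb (-1.5) fell most.

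After hepatectomy 34 of 79 pathway genes fell and 7 rose, where 14.3% of all genes fell and 16.4% rose, and 35 fell and 6 rose without PHx 3. Without sham 2 or PHx 1 only 4 rose, and 23 and 29 fell. Without sham 3 or PHx 2 only 3 rose, and 24 and 25 fell. All 4 lists had medians under that of all genes (0.01): -0.37, -0.21, -0.16 and -0.54 for gluconeogenesis, glycolysis, glycogen and regulators. The glucose-6-phosphate transporter Slc37a4, partner of G6pc, fell from 261 ± 43.6 to 114 ± 7.66 CPM (-1.20, adjusted p = 0.00044), and the glucose transporter Slc2a2 from 763 ± 100.4 to 369 ± 72.7 CPM (-1.05, adjusted p = 0.00219). The regulators Igfbp1 (-3.13, adjusted p = 0.00737), Ppargc1a (-1.74, adjusted p = 0.0108) and Tat (-1.26, adjusted p = 0.0105) fell, all known as genes of the fasting response, and so did the aminotransferase Got1 (-1.29). Lactate dehydrogenase Ldha rose from 521 ± 62.7 to 1208 ± 269 CPM (1.21, adjusted p = 0.00131). At far lower mean levels, Pygb (1.42, from 5.56 to 14.9 CPM) and the mitochondrial carboxykinase Pck2 (1.02, from 2.07 to 4.20 CPM) rose. So did Pfkfb4 (1.09, from 0.438 to 0.941 CPM). Hk2 (1.05, adjusted p = 0.0830) did not pass.

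In high fat hepatocytes 9 of 80 pathway genes rose and 6 fell, no larger shares than the 12.9% and 11.1% of all genes. Pfkfb3 fell most (-2.22, from 98.5 ± 16.5 to 21.5 ± 14.97 CPM, adjusted p = 0.0255), and the sugar-responsive gene Txnip fell as well (-1.28), with the glycogen-binding protein Stbd1 (-1.06) and aldolase Aldoc (-1.44). The factor Onecut1 (1.69), Pkm (1.48), the pyruvate dehydrogenase kinase Pdk4 (1.03) and the glycogen phosphatase laforin Epm2a (0.92) rose. Pkm is also made by endothelial and immune cells, whose markers rose in these libraries, and the part of such cells in its rise was not tested. Slc2a2 (0.34, adjusted p = 0.0544) did not pass. Without high fat 2, 5 pathway genes rose.

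With cholic acid 3 of 79 pathway genes rose and 1 fell, near the 2.27% and 2.5% of all genes. The branching enzyme Gbe1 rose from 79.2 ± 8.90 to 152 ± 38.3 CPM (0.94, adjusted p = 0.0456), and the coactivator Ppargc1a from 9.34 ± 1.63 to 19.7 ± 0.827 CPM (1.08, adjusted p = 0.0164). Cebpa fell from 394 ± 37.0 to 187 ± 57.1 CPM (-1.08, adjusted p = 0.0406). Ppargc1a, a coactivator of gluconeogenic genes, thus rose while Pck1 did not differ detectably and G6pc was lower in each library without passing. Leaving out 1 library gave 0 to 5 rises and 0 to 2 falls: 5 rises without floxed chow 3, 2 falls without cholic acid 1, and none of either without floxed chow 1, floxed chow 2, cholic acid 2 or cholic acid 3. With TCPOBOP 0 of 79 passed, and fits without either corn oil library cannot measure the spread of the controls.

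**Figure D4:**
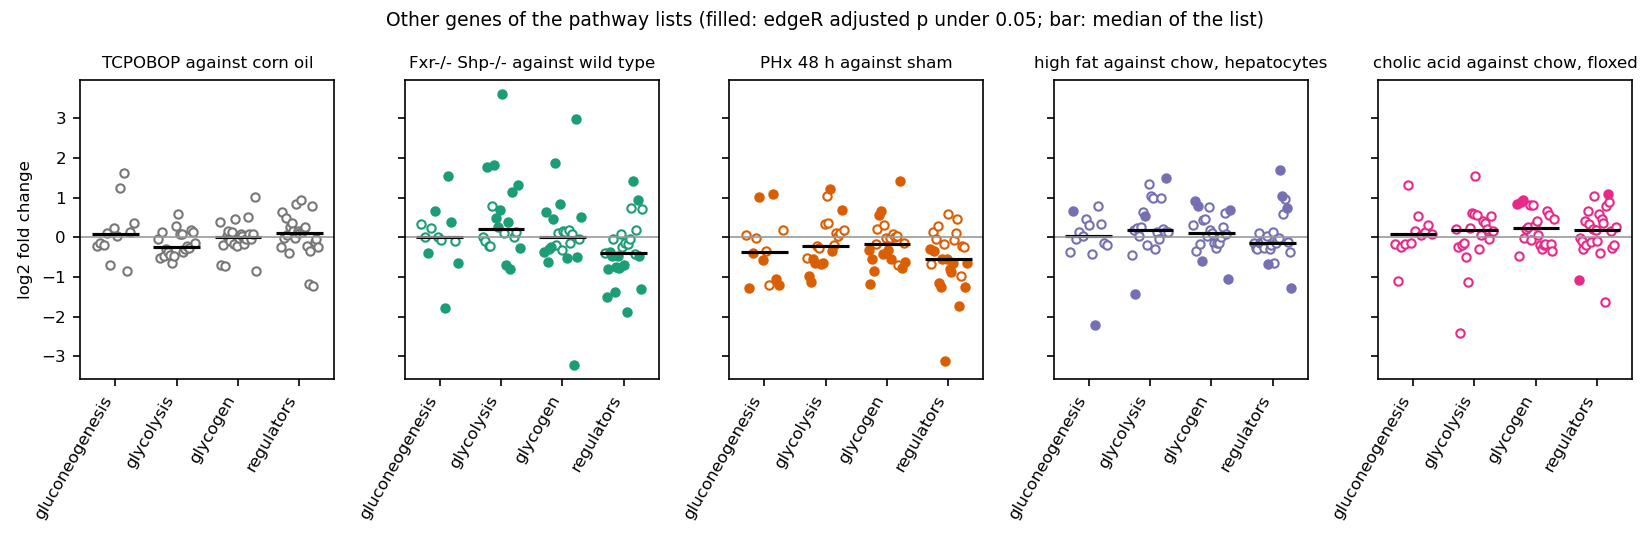
Log2 fold change (y axis) of each tested gene of the 4 pathway lists (x axis), without the 9 members, in the 5 comparisons; filled points passed edgeR's test at an adjusted p under 0.05 and bars are list medians. After hepatectomy 34 filled points lie under 0 and 7 above it, and in the knockout panel 12 filled regulators lie under 0 and 2 above it.

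Over the 26 libraries, after subtracting each experiment's mean, the genes most like each member were found by Pearson's r of log2 CPM among 10089 genes. These values describe libraries that share experiments and depth. Fbp1 was most like Hibch (0.95), Acads (0.94) and Suclg1 (0.94), which are mitochondrial enzymes, and Gys2 was most like Uqcrc2 (0.89), a subunit of respiratory complex III. Pck1 was most like Usp2 (0.89), Pklr like Ces1e (0.83), Epm2a (0.83) and malic enzyme Me1 (0.83), and Pfkfb1 like Ebp (0.89), a sterol isomerase. For G6pc the first was Copg2 (0.84), for Ppp1r3b Zfhx4 (0.88), for Ppp1r3c Eml3 (0.89) and for Ppp1r3g C9orf72 (0.91). No member was among the 3 most like another. Between members the highest values were 0.76 for Fbp1 and Gys2 and 0.71 for G6pc and Gys2, and the lowest was -0.48 for Ppp1r3c and Ppp1r3g. Ppp1r3b and Ppp1r3c had 0.60, and Pck1 and G6pc, both gluconeogenic, 0.50.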

How the data were processed

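The deposited table gives whole-number read counts per gene for 26 libraries, made by the authors and not normalized. Per the labels' protocols, RNA was extracted with an RNeasy kit and libraries were made with a stranded TruSeq mRNA kit. Per the submitters' processing notes, bcl2fastq 2.17.1.14, Trimmomatic, STAR 2.4.2a, Picard 1.119 and HTSeq were used on GRCm38 (mm10). The strand setting of counting is not given in the sources used here. The 5 summary lines of the counter were left out of library sizes: reads not aligned uniquely came to between 16.6 and 44.1% of all reads listed for a library. Of 47643 identifiers, 47224 had a symbol.

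Each treated group was fitted with its own control in edgeR 4.0.16 (limma 3.58.1, R 4.3.3): filterByExpr (minimum count 10, total 15), TMM scaling, the quasi-likelihood F test and Benjamini-Hochberg adjustment over all genes tested, called at 0.05. Differences between effects were interaction contrasts over 4 groups. Alternatives were DESeq2 1.42.0 (size factors, Wald test), all genes unfiltered, a filter at a mean of 10 counts, 1 fit to all 26 libraries, a replicate block, and each library left out in turn. The fits were also run on simulated data with 200 seeded genes per comparison, all well counted, and with a common dispersion for all genes. That run does not cover low counts or single libraries that stand apart from their group. The members and the gene lists were chosen with earlier results of these data known. Named beside the 9 members are listed pathway genes, the 4 largest called rises and falls of the pathway lists without overlap between groups, and the 3 genes most like each member. A few genes that this rule names are not reported here.

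Groups of an experiment share replicate numbers. The tests given above used the group only unless the block is named, and the replicate block was an alternative fit. The numbers were read as a possible pairing where, with at least 3 pairs, every same-numbered pair correlated over 0.1. In the cholic acid experiment same-numbered libraries deviated together (r = 0.1319, 0.1555 and 0.1027), so they met this rule, which comes from the data and not from the labels. The block changed no member's call there. No other experiment met it: the TCPOBOP pairs had r = 0.104 but number only 2.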

Additional observations from a re-analysis of the deposited data

Results flagged for a closer look

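The effects of 2 experiments differed by a test of the difference itself for 6 member results. Between the double knockout and hepatectomy, the log2 effect was higher in the knockout for Pklr by 3.26 (110.0 to 129 CPM in knockout against 40.2 to 55.0 CPM in wild type, and 90.6 to 102 CPM after PHx against 354 to 368 CPM after sham operation), for Ppp1r3g by 8.24 and for Fbp1 by 0.70, and for Ppp1r3c the difference was -3.31. For Pklr, Ppp1r3g and Ppp1r3c the point estimates of the effects had opposite signs in the experiments. Between cholic acid and high fat feeding the difference was -1.25 for Pfkfb1 and -1.87 for Pklr, and with the replicate numbers as a block neither passed (adjusted p = 0.058 each). The first pair of experiments differs in strain and age. The second differs in tissue preparation, genotype, age and stated length of fast. The part of any of these in the differences was not tested.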

How the results depend on the processing

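Across the alternatives without a left-out library no member changed sign. DESeq2's size factors moved 1 of 62 member values across the threshold, a mean of 10 counts as the filter moved 0 of 62, no filter 9 of 62 and a single fit of all libraries 10 of 62. DESeq2's Wald test gained 12 of 60 calls and lost none, and 2 adjusted p it gives as NA were left out. For TCPOBOP it called 91 genes with 2 members lowered, and a single fit of all libraries called 9 genes. In the knockout 1 member rose in the single fit. For high fat, 3 members rose by the Wald test and 2 with no filter, and in the single fit 0 were lowered and 1735 genes called. For cholic acid the Wald test called 1445 genes with 4 members lowered, no filter 955 genes, and the single fit 3132 genes with 4 members lowered. For the knockout against hepatectomy 2 members had a lower effect by the Wald test and 2 with no filter. For cholic acid against high fat the Wald test gave 2 higher, 4 lower and 1942 genes, no filter 1 higher and 4 lower, and the single fit 1 higher, 4 lower and 2435 genes. With the replicate block, high fat had 2 members raised (G6pc at 0.87 beside Pklr) and cholic acid against high fat 0 lower (Pklr and Pfkfb1 at an adjusted p of 0.058 each) and 446 genes. Ppp1r3b after hepatectomy and Ppp1r3c with high fat also passed with it, and no other member's call changed. Under the block 4763 genes were called in the knockout and 3664 after hepatectomy, where not every library correlated best with its own number (r = -0.1749 to -0.019 and -0.0759 to 0.0691).

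With 1 library left out, TCPOBOP gave 0 to 1 members raised, 0 to 3 lowered, 0 to 1233 genes, and 0 to 8 pathway genes raised and 0 to 7 lowered. Hepatectomy gave 0 to 1 raised, 4 to 7 lowered, 2554 to 4217 genes, and 3 to 6 pathway genes raised and 23 to 35 lowered. High fat gave 0 to 2 raised, 1 to 3 lowered, 1141 to 2644 genes and 5 to 11 pathway genes raised. Cholic acid gave 1 to 5 lowered, 189 to 1345 genes and 0 to 5 pathway genes raised and 0 to 2 lowered. The knockout against hepatectomy gave 1 to 2 lower, and cholic acid against high fat 0 to 3 lower and 76 to 1958 genes. Signs changed, never with a call, for TCPOBOP in G6pc (-0.052 to 0.54), Pck1 (-0.18 to 2.92), Fbp1 (-0.48 to 0.21) and Pfkfb1 (-0.16 to 0.43). They changed in the knockout for Fbp1 (-0.22 to 0.026) and Pfkfb1 (-0.20 to 0.21), and with high fat for Ppp1r3b (-0.26 to 0.56) and Ppp1r3g (-1.02 to 1.84). They changed with cholic acid for Pck1 (-0.094 to 0.14) and Ppp1r3g (-5.62 to 2.69), and for cholic acid against high fat for Ppp1r3g (-5.80 to 2.54). The cause was not tested. For TCPOBOP and for high fat each such fit leaves 1 library in a group, so the spread of that group cannot be measured. The pathway counts were recomputed after seeing the data. Low counts limited Ppp1r3g most, with 13 to 48 reads per wild type library, 1 to 10 with corn oil or TCPOBOP and 0 in PHx 3.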
